A study of Mus musculus with 6 samples.

Results

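The IkB family was examined through its 6 members that Gene Symbol identifies in the deposited gene table: the classical inhibitors Nfkbia, Nfkbib and Nfkbie and the nuclear IkBs Nfkbiz, Nfkbid and Bcl3. All 6 were among the 21825 genes of the table and among the 15719 that passed the low-count filter. RNA came from group 2 innate lymphoid cells (ILC2s), antigen receptor-negative lymphocytes that make type 2 cytokines, sorted from lungs of BALB/c mice aged 6 weeks. The mice of both groups had been injected intraperitoneally 3 times with 1 µg recombinant mouse IL-33, and all sorted cells were cultured with IL-2 and IL-7, each at 10 ng/mL, over 48 h. The TNFa group (3 libraries, numbered 4 to 6) also received 40 ng/mL recombinant TNFa, and the PBS group (3 libraries, numbered 1 to 3) received PBS. The labels do not say whether libraries came from separate mice or cultures, so the spread on which p-values rest may be technical. The label of PBS replicate 2 alone is marked as a repeat, without saying what was repeated.

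IkB proteins bind NF-kB dimers through ankyrin repeats. The classical members hold the dimers in the cytoplasm. When a receptor such as that for TNF activates the IKK kinases, these phosphorylate the classical IkBs, the ubiquitin ligase SCF beta-TrCP marks them, and the proteasome destroys them, which frees NF-kB. Nfkbia is itself a textbook NF-kB target, so the inhibitor is made again after the signal. The nuclear IkBs act on the p50 and p52 subunits at DNA, where they can raise or lower transcription.

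The windows of 250 bases before each annotated gene start were searched on both strands for the kB motif, the DNA element that NF-kB binds, in the form GGG, then 3 bases of any kind, then TTCC. Of the 6 members, 5 matched a RefSeq promoter entry (build GRCm38.p6) by symbol, and 3 of these had a match. Across all 32851 windows 4.65% had one, and 5.31% of 27025 genes had one in at least 1 window. The matches are printed to show which members carry the motif and where. They are a description only: Nfkbie and Nfkbid, which each carry one, did not pass the test described later, and Nfkbiz was not searched. Each line reads 5′ to 3′ on the gene's own strand with up to 30 flanking bases on each side, and capitals mark the match.
Nfkbia: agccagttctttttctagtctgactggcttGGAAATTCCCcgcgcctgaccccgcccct
Nfkbie: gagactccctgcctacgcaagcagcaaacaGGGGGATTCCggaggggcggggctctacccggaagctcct
Nfkbid: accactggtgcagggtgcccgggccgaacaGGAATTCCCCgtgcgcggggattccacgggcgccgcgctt
The stretch for Nfkbia is chr12:55492648-55492706 on the minus strand, and its match lies 29 to 20 bases before the start, in the reverse orientation. That for Nfkbie is chr17:45555564-45555633 on the plus strand, with the match 106 to 97 bases before the start in the forward orientation. For Nfkbid the stretch is chr7:30422195-30422264 on the plus strand, and the match lies 181 to 172 bases before the second of 3 annotated starts, in the reverse orientation. The windows of Nfkbib and Bcl3, and those of the other two Nfkbid starts, had no match, which says only that these letters are not in these windows. The RefSeq start of Nfkbib lies inside the gene interval of the deposited table, downstream of the outermost start there.

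**Figure D1:**
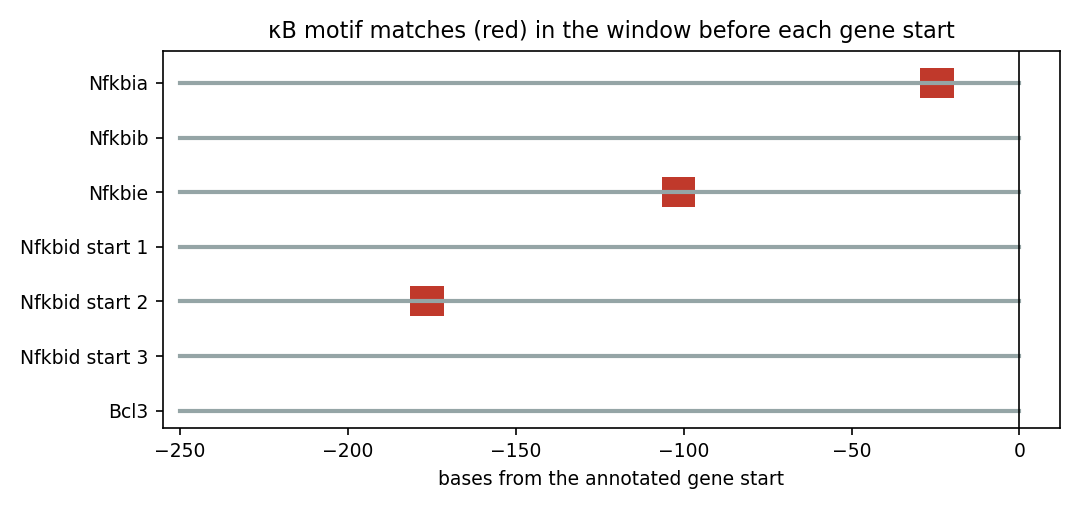
Position of kB motif matches on either strand (red boxes) in the 250 bases before each annotated start, in bases from the start, for the 5 members with a promoter entry. Nfkbia has a match 29 to 20 bases before its start, Nfkbie 106 to 97 and the second Nfkbid start 181 to 172, and the other 4 windows have none.

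Nfkbia (IkBa, the inhibitor that NF-kB restores after a signal) rose 2.17-fold, while none of the other 5 passed the test over all genes. That call was lost in 6 of 11 alternative fits, given with the gene. The classical members all had fitted fold changes above 1 and the nuclear members all had fitted fold changes below 1. However, the 95% intervals of Nfkbib, Nfkbid and Bcl3 include 1, and 7951 of the 15719 tested genes had a fitted fold change above 1. In edgeR's quasi-likelihood test, 1 of 6 members passed an adjusted p of 0.05, where 0.102% of the 15719 tested genes did. DESeq2, which called 1.39% of the tested genes, and limma's voom fit with a quality weight for each library, which called 0.496%, called the same member alone. At an unadjusted p under 0.05 there were 3 members (Nfkbia, Nfkbie and Nfkbiz), against 8.31% of all tested genes. The median log2 fold change was 0.80 over the 3 classical members and -0.22 over the 3 nuclear members, beside 0.0047 over all tested genes.

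Library totals ran from 25089415 to 32487004 counts, and the members held between 380 and 6395 counts in a library. TNFa replicate 5 stood apart: its mean correlation with the other libraries was 0.949, against 0.964 to 0.967 for the rest, and its weight in the voom fit was 0.311, against 0.878 to 1.59. ILC2 markers were abundant in every library, with a sum over 14 genes of 10640 to 11710 CPM (counts scaled to a common library size) with TNFa and 10130 to 11480 CPM with PBS. The most abundant were Il5 and Il2ra, with means of 5442 and 2228 CPM with TNFa and 4520 and 1841 CPM with PBS, and the sum hides differences between markers. Without overlap between groups, 7 of the 14 (Gata3, Rora, Il1rl1, Il17rb, Klrg1, Icos and Arg1) were lower with TNFa and 2 (Il5 and Areg) were higher. Over all tested genes 15.2% did not overlap, in either direction. Of the 14 markers, Icos alone passed the test over all genes. The lowest marker was Thy1, at 2.32 to 4.52 CPM over all libraries. Mast cell and basophil markers, led by Tpsab1 and Cma1, summed to 1277 to 1459 CPM with TNFa and 1201 to 1368 CPM with PBS. Summed T cell markers, led by Cd3g and Cd3e, were lower with TNFa without overlap, at 75.5 to 83.05 CPM against 86.7 to 95.05 CPM with PBS. Of these 7 genes, 1 separated by itself and 0 passed the test over all genes, while Cd3g and Cd3e each overlapped. Summed B cell markers were also lower without overlap, at 13.8 to 16.2 CPM with TNFa and 19.4 to 20.3 CPM with PBS over 3 genes, of which 0 passed. Most of that sum was Cd79b, followed by Ms4a1, and Cd79a was at 1.30 CPM or less. Myeloid markers, led by Lyz2 and Cd68, summed to 14.1 to 31.7 CPM with TNFa and 17.8 to 40.9 CPM with PBS. Structural markers, led by Pecam1 and, by the mean over all 6 libraries, Scgb1a1, summed to 142 to 198 CPM with TNFa and 119 to 153 CPM with PBS. Scgb1a1 was at 81.0, 0.187 and 46.1 CPM in TNFa replicates 4, 5 and 6 and at most 8.07 CPM with PBS, and Epcam was lower without overlap, with means of 14.2 CPM with TNFa and 27.4 CPM with PBS. Markers of NK cells and other ILCs, led by Ncr1 and Tbx21, and of erythroid cells, led by Hba-a1 with Hba-a2, did not exceed 4.31 CPM in sum. In bulk RNA, fewer cells of a type and less RNA per cell cannot be told apart, and the part of these cells in the member values was not tested.

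Nfkbia (chromosome 12, 55489410 to 55492647, minus strand, mm10) was at 201, 239 and 191 CPM in TNFa replicates 4, 5 and 6, and at 109, 106 and 76.6 CPM in PBS replicates 1, 2 and 3. Every TNFa library lay above every PBS library, by a factor of at least 1.76 between the closest libraries. The means were 210 ± 25.3 CPM with TNFa and 97.2 ± 17.9 CPM with PBS (SD, n = 3 each). The log2 fold change was 1.11 ± 0.15 (SE; edgeR adjusted p = 0.038), with a 95% interval of 1.71-fold to 2.75-fold, and Nfkbia was 13th of all tested genes by p-value. Leaving out any library other than TNFa replicate 5 ended the call, with adjusted p-values of 0.11 to 0.35, as did testing without the low-count filter (adjusted p = 0.068), while the log2 fold change stayed between 0.97 and 1.20 over all 6 omissions. Without TNFa replicate 5, the library with the most Nfkbia, it was 1.01 ± 0.14 (adjusted p = 0.015), in a fit that called 0.406% of its tested genes.

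Nfkbie (IkBe; chromosome 17, 45555703 to 45563169, plus strand) was at 48.4, 25.8 and 34.8 CPM in TNFa replicates 4, 5 and 6, and at 17.4, 23.98 and 21.4 CPM in PBS replicates 1, 2 and 3. The groups did not overlap, but TNFa replicate 5 lay just above PBS replicate 2. The means were 36.3 ± 11.4 CPM with TNFa and 20.9 ± 3.33 CPM with PBS, the widest TNFa spread relative to its mean of the 6 members. The fold change of 1.74 (95% interval 1.21 to 2.50) did not pass over all genes (edgeR adjusted p = 0.37). Without TNFa replicate 5 the log2 fold change was 0.99 ± 0.19 (adjusted p = 0.060), and without TNFa replicate 4 it was 0.53 ± 0.22 (adjusted p = 0.59).

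Nfkbib (IkBb; chromosome 7, 28758251 to 28767512, minus strand), a classical inhibitor that in many cells is broken down more slowly than IkBa, gave the smallest difference of the classical members. It was at 74.9, 74.2 and 67.3 CPM in TNFa replicates 4, 5 and 6 and at 68.1, 60.0 and 54.5 CPM in PBS replicates 1, 2 and 3. TNFa replicate 6 lay below PBS replicate 1, so the groups overlapped. The fold change was 1.19 (95% interval 0.975 to 1.44; edgeR adjusted p = 0.67). Its exons share 42 bases with those of Sirt2 and 314 with those of Ccer2, both on the opposite strand, and the strand setting of the counting is not given in the sources used here. Sirt2 held 1887 to 2303 counts with TNFa and 2218 to 2394 with PBS. The deposited gene table has no row under the symbol Ccer2, so no Ccer2 counts can be given.

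None of the 3 nuclear members passed in edgeR, in DESeq2 or in the voom fit, and 1 of them, Nfkbiz, had an unadjusted p under 0.05 in each. Nfkbiz (IkBz; chromosome 16, 55811375 to 55838899, minus strand) encodes a nuclear IkB needed for secondary response genes such as Il6 in macrophages. It was at 25.0, 16.0 and 23.7 CPM in TNFa replicates 4, 5 and 6, and at 34.7, 40.1 and 30.8 CPM in PBS replicates 1, 2 and 3. All TNFa libraries lay below all PBS libraries, and replicate 5 was the lowest. The summed T cell and B cell markers given above were also lower in every TNFa library, and their part in the Nfkbiz values was not tested. The means were 21.5 ± 4.88 CPM with TNFa and 35.2 ± 4.64 CPM with PBS, a fold change of 0.612 (95% interval 0.449 to 0.834) that missed the threshold over all genes (edgeR adjusted p = 0.35). Without TNFa replicate 5 the log2 fold change was -0.54 ± 0.16 (adjusted p = 0.24).

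Bcl3 (chromosome 7, 19808462 to 19822770, minus strand) binds p50 and p52 homodimers and can bring a transactivation domain to them. It was at 134, 108 and 129 CPM in TNFa replicates 4, 5 and 6 and at 147, 152 and 132 CPM in PBS replicates 1, 2 and 3. TNFa replicate 4 lay above PBS replicate 3, so the groups overlapped slightly, and the fold change was 0.860 (95% interval 0.716 to 1.03; edgeR adjusted p = 0.69). An antisense gene, Gm16175, shares 161 exonic bases with Bcl3, and it held at most 8 counts in a library.

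Nfkbid (IkBNS; chromosome 7, 30421732 to 30428746, plus strand), best known from T and B cells, was at 15.02, 19.1 and 18.8 CPM in TNFa replicates 4, 5 and 6 and at 20.3, 22.6 and 15.4 CPM in PBS replicates 1, 2 and 3. The groups overlapped widely, each having 1 library near 15 CPM. The fold change of 0.908 (95% interval 0.667 to 1.24; edgeR adjusted p = 0.89) did not pass, and its interval spans both directions.

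**Figure D2:**
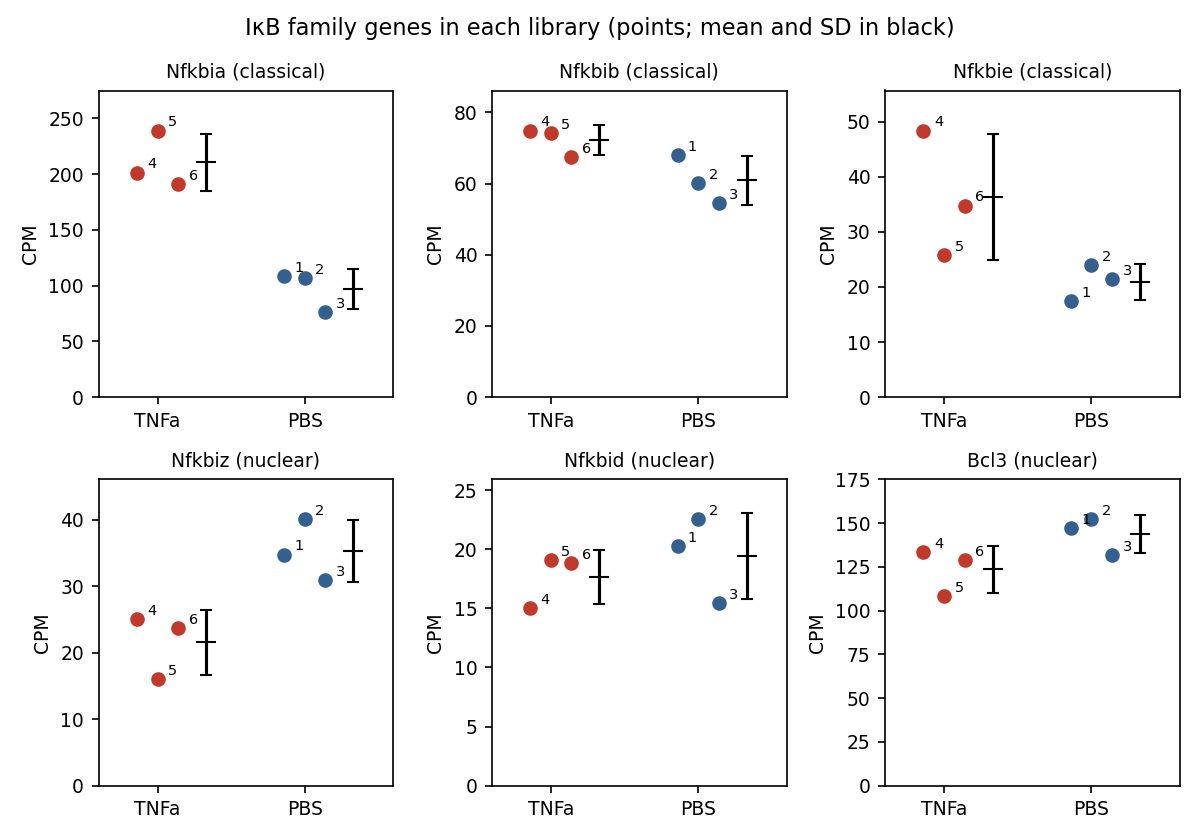
Level of each IkB family gene in CPM, with TNFa libraries (red, replicates 4 to 6) left of PBS libraries (blue, replicates 1 to 3), each point 1 library, and the mean and SD in black. Nfkbia, Nfkbie and Nfkbiz separate without overlap, Nfkbie narrowly because TNFa replicate 5 stands at 25.8 CPM, and the other 3 genes overlap.

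In all, 3 of 6 members (Nfkbia, Nfkbie and Nfkbiz) did not overlap between groups in CPM, where 15.2% of the tested genes did not. The separation of the smaller differences depended on the scale. In TPM, which divides counts by transcript length before scaling every library to the same total, 4 of 6 members did not overlap, where 14.6% of 15660 genes with a length did not. Nfkbia and Nfkbiz separated on both scales. Nfkbie separated in CPM alone, its TPM in TNFa replicate 5 being 20.3 against 21.6 in PBS replicate 2. Nfkbib and Bcl3 separated in TPM alone, with a highest Bcl3 level of 149.8 TPM with TNFa and a lowest of 150.8 TPM with PBS. The direction of the group means was the same on both scales for each member.

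**Figure D3:**
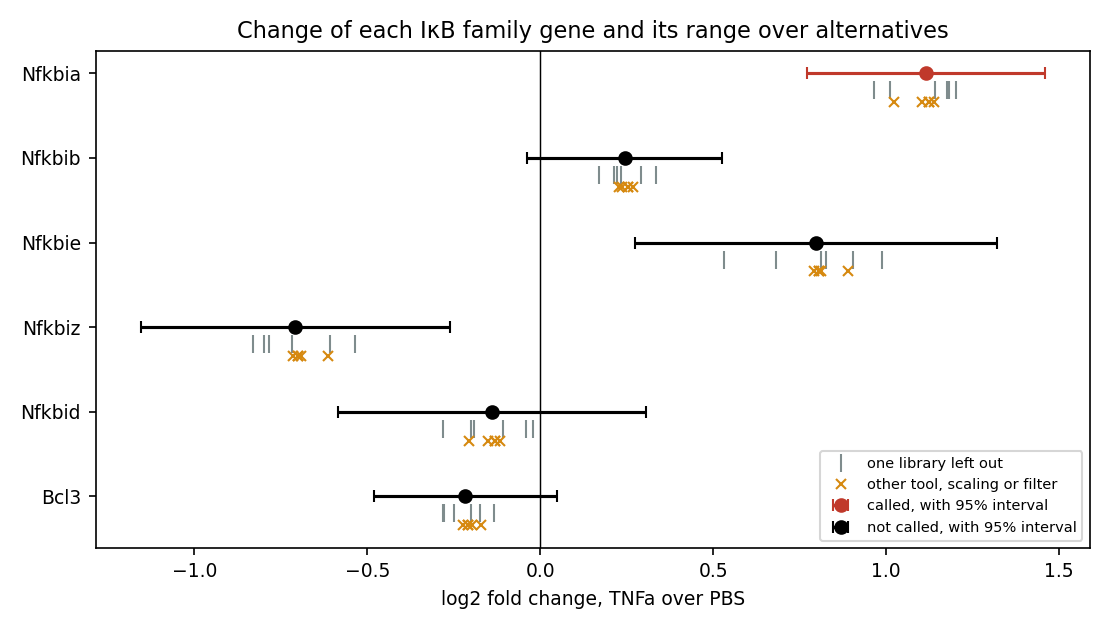
Log2 fold change, TNFa over PBS, of each member from the edgeR fit with its 95% interval (red where called, black where not), with grey ticks for fits that leave out 1 library and orange crosses for another tool, scaling or filter. No fitted log2 fold change changes sign for any member, but the 95% intervals of Nfkbib, Nfkbid and Bcl3 include 0. The fitted Nfkbia values stay between 0.97 and 1.20, and those of Nfkbid come closest to 0, at -0.02.

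Per length, a scale on which genes can be compared, Nfkbia and Bcl3 were the main IkB family transcripts. With TNFa the order was Nfkbia (345 ± 11.7 TPM), Bcl3 (133 ± 24.9), Nfkbib (88.1 ± 7.06), Nfkbie (32.1 ± 11.9), Nfkbid (19.9 ± 2.37) and Nfkbiz (11.5 ± 3.42). The ranges of neighbours in that order over the TNFa libraries were separate except for those of Nfkbie and Nfkbid. With PBS the level of Nfkbia was 164 ± 25.3 TPM and that of Bcl3 158 ± 9.48, which did not differ beyond their spread. Nfkbib followed at 76.2 ± 5.24 TPM, and then Nfkbid (22.5 ± 3.85), Nfkbiz (19.1 ± 2.43) and Nfkbie (18.8 ± 3.501) with overlapping ranges. By mean TPM over the 6 libraries, Nfkbia stood above 95.4% of the tested genes and Bcl3 above 92.1%, while Nfkbiz stood above 58.7%.

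The make-up of the family by transcript level differed between groups. Nfkbia took 51.9, 60.3 and 52.5% of the summed family TPM in TNFa replicates 4, 5 and 6, against 37.6, 36.6 and 32.7% in PBS replicates 1, 2 and 3. Bcl3 took 22.4, 17.8 and 23.0% in the TNFa libraries and 33.1, 34.05 and 36.5% in the PBS libraries. Neither gene's shares overlapped between groups, and a share falls when another member's level goes up. The summed level of the 3 classical members was 465 ± 19.1 TPM with TNFa and 259 ± 28.8 TPM with PBS, and that of the 3 nuclear members was 165 ± 28.6 TPM with TNFa and 200 ± 15.6 TPM with PBS. The ratio of the classical to the nuclear sum was 2.68, 3.47 and 2.49 in TNFa replicates 4, 5 and 6, against 1.39, 1.28 and 1.21 in PBS replicates 1, 2 and 3. TNFa replicate 5 was the most extreme TNFa library in the Nfkbia and Bcl3 shares and in this ratio. The classical sum was mostly Nfkbia and the nuclear sum mostly Bcl3, and these sums and shares carry no test.

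**Figure D4:**
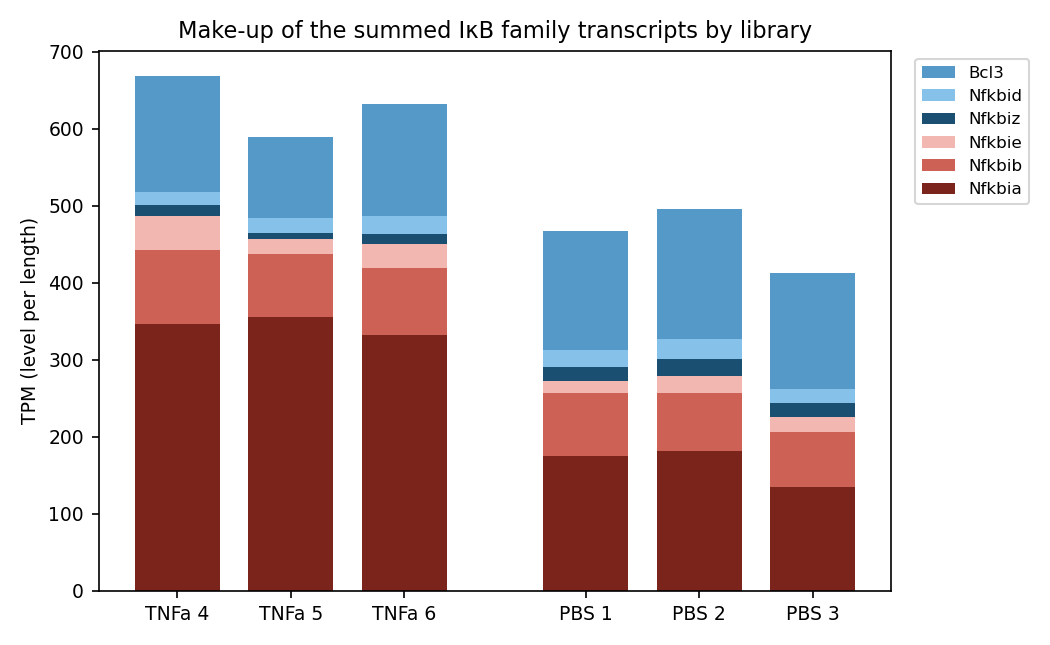
Summed level of the 6 members in TPM (stacked bars) in each library, TNFa on the left and PBS on the right, classical members in reds and nuclear members in blues. The TNFa bars reach 589 to 668 TPM and the PBS bars 413 to 496 TPM, and the Nfkbia segment spans 332 to 355 TPM with TNFa and 135 to 181 TPM with PBS.

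Other genes of the pathway were read from the same fit. Of 26 tested genes in 7 lists, 1 passed, Nfkb2, where 0.102% of all tested genes did. At an unadjusted p under 0.05 in edgeR there were 5, against 8.31% of all tested genes. The median log2 fold change was 0.0035, with 13 above 0 and 13 below. Nfkb2 and Nfkb1 encode p100 and p105, precursors of p52 and p50 that also hold NF-kB dimers back through their own ankyrin repeats. Nfkb2 was at 146, 130 and 136 CPM in TNFa replicates 4, 5 and 6, against 55.3, 74.6 and 52.1 CPM in PBS replicates 1, 2 and 3 (log2 fold change 1.18 ± 0.15, edgeR adjusted p = 0.032). Its call was lost without TNFa replicate 4 or 6 and without PBS replicate 1 or 3 (adjusted p = 0.16, 0.11, 0.37 and 0.32), and without the low-count filter (0.064). Nfkb1 was at 230, 275 and 221 CPM in the TNFa libraries and 381, 350 and 381 CPM in the PBS libraries (-0.61 ± 0.11, adjusted p = 0.11). It passed in DESeq2 and the voom fit (adjusted p = 0.00060 and 0.0050), and its edgeR adjusted p was 0.0061 without TNFa replicate 5 and 0.32 to 0.56 without each of the other libraries. Relb, another subunit gene, was at 66.6, 53.2 and 59.6 CPM in TNFa replicates 4, 5 and 6, against 30.3, 40.65 and 27.5 CPM in PBS replicates 1, 2 and 3. Its log2 fold change was 0.87 ± 0.17 (edgeR adjusted p = 0.15). Relb passed in DESeq2 and the voom fit (adjusted p = 0.00091 and 0.026) and in edgeR without TNFa replicate 5 (0.045), and in no other alternative. Rela, the p65 subunit that IkBa binds with p50, was at 128 ± 11.1 CPM with TNFa and 131 ± 8.80 CPM with PBS. The level of Nfkbia relative to Rela, both per length, was 2.88, 3.96 and 2.70 in TNFa replicates 4, 5 and 6 and 1.49, 1.54 and 1.20 in PBS replicates 1, 2 and 3.

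The machinery that phosphorylates and removes classical IkBs gave no calls. Of the 3 genes of the IKK complex, none passed and none had an unadjusted p under 0.05 in edgeR. Its kinase genes Ikbkb and Chuk had log2 fold changes of -0.0012 ± 0.15 and 0.08 ± 0.18. Of 5 genes of the SCF beta-TrCP ligase none passed, likewise with 0 at an unadjusted p under 0.05. Its most abundant members were Skp1a, the adaptor (log2 fold change 0.16 ± 0.11), and Rbx1, the RING subunit (0.07 ± 0.13). Among 3 IkB-binding genes 0 passed and 0 had an unadjusted p under 0.05. They include Commd1 (0.01 ± 0.17) and Nkiras2, a small GTPase-like partner of IkBb (-0.23 ± 0.15). Nfkbil1, an IkB-like gene, stood at -0.22 ± 0.28. DESeq2 and the voom fit called none of these genes either.

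The RNA-binding proteins Regnase-1 (Zc3h12a) and Roquin (Rc3h1, Rc3h2) shorten the life of Nfkbiz and Nfkbid transcripts. None of the 3 genes passed, with 0 at an unadjusted p under 0.05 in edgeR. The most abundant were Rc3h1, at 22.5 ± 2.99 CPM with TNFa and 28.1 ± 3.53 CPM with PBS (log2 fold change -0.32 ± 0.17), and Rc3h2 (-0.20 ± 0.18).

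Of 9 genes reported in other cells to depend on a nuclear IkB, 6 were tested and 0 passed in edgeR. At an unadjusted p under 0.05, which 8.31% of all tested genes reached, there were 2. These were Foxp3, the regulatory T cell factor linked to IkBNS, and Gata3, the ILC2 and Th2 factor linked to Bcl3 in T cells. Gata3 was at 746, 646 and 722 CPM in TNFa replicates 4, 5 and 6 and at 1003, 1034 and 897 CPM in PBS replicates 1, 2 and 3 (log2 fold change -0.47 ± 0.10, edgeR adjusted p = 0.20). It passed in DESeq2 (adjusted p = 0.0090) and in the voom fit (adjusted p = 0.027). Foxp3 was at 25.4 ± 3.30 CPM with TNFa and 36.6 ± 4.44 CPM with PBS (-0.52 ± 0.16, edgeR adjusted p = 0.39), beside the lower summed T cell markers given above. Il10, second in the list to Gata3 by the mean over all 6 libraries, had a mean of 35.1 ± 11.4 CPM with TNFa and 31.9 ± 5.82 CPM with PBS, with overlapping libraries. Il6 was at 4.49 ± 0.810 CPM with TNFa and 4.28 ± 0.870 CPM with PBS. Lcn2 and Il2, both at very low levels, separated without overlap in opposite directions, where 15.2% of all tested genes did not overlap. Lcn2 was lower, with means of 0.25 CPM with TNFa and 0.64 CPM with PBS (edgeR adjusted p = 0.64). Il2 was higher, with means of 0.65 CPM with TNFa and 0.49 CPM with PBS (edgeR adjusted p = 0.89).

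**Figure D5:**
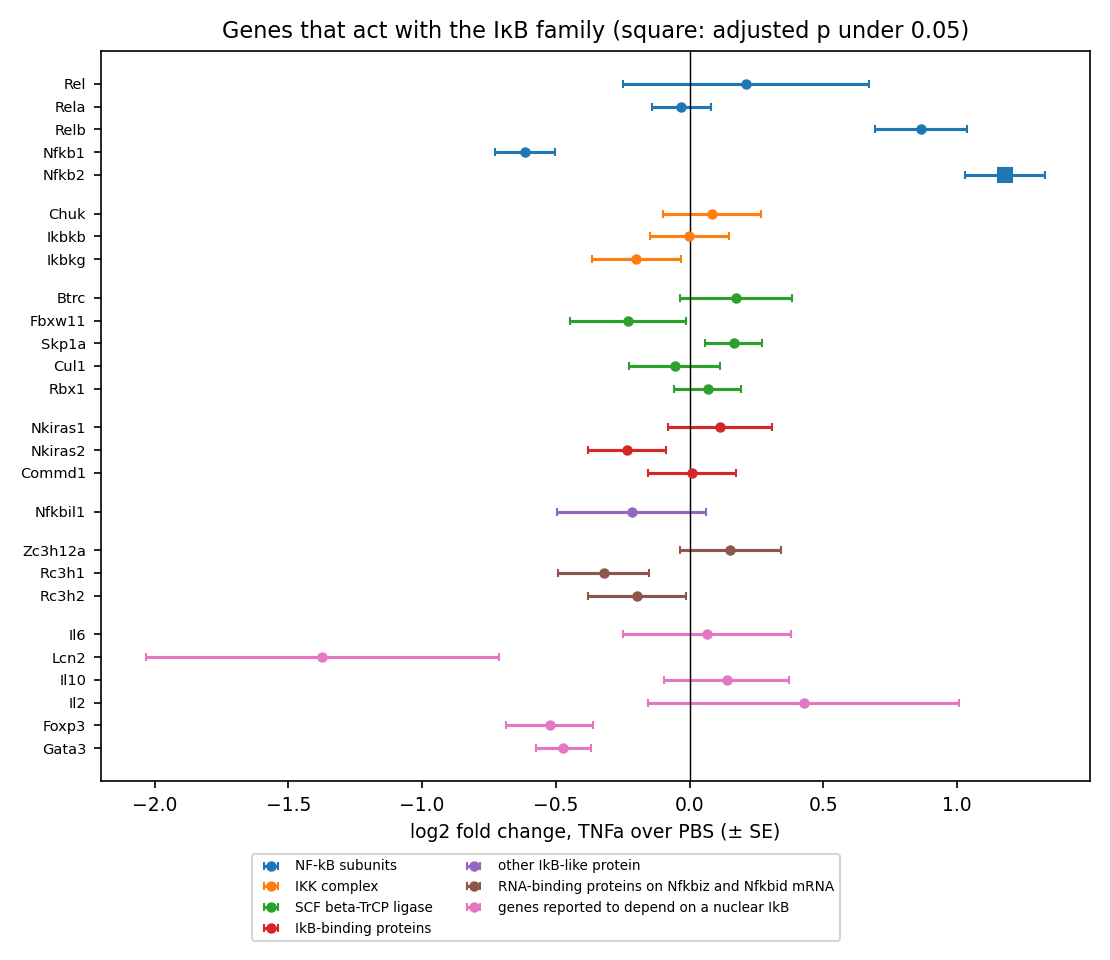
Log2 fold change, TNFa over PBS, with its SE from the edgeR fit, for 26 tested genes of the pathway lists, coloured by list. These include genes reported in other cells to depend on a nuclear IkB. Nfkb2 (square, 1.18) is the gene that passed, Nfkb1 lies at -0.61, and the IKK and SCF beta-TrCP genes lie between -0.23 and 0.17.

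The genes most like each member were sought by Pearson correlation of log2 CPM over the 6 libraries, among 8750 genes with a mean of at least 10 CPM. With so few libraries and so many candidates high values are easily reached, and the points share library depth and composition. The correlation runs over both groups, so genes that differ between groups in the same direction as a member also score high. Ltb, for example, had means of 184 CPM with TNFa and 88.95 CPM with PBS. Likeness within a group was not tested. Nfkbia was most like Ltb (r = 0.995), the lymphotoxin beta gene, then Oaf (0.993) and Csf2 (0.989), the GM-CSF gene. Nfkbiz was most like Cerk (0.998), Ank (0.996) and Plxna1 (0.995). Bcl3 was closest to Chdh (0.994), Map1s (0.993) and Fam129a (0.991). Nfkbie lay nearest to Atad3a (0.993), Riok3 (0.988) and Wdr3 (0.981). Nfkbib was most like Nufip1 (0.999), Pwp2 (0.988) and Uchl3 (0.982), and Nfkbid most like Gm9347 (0.991), Cdk9 (0.974) and Cope (0.974). No gene appeared in the first 3 of more than 1 member.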

How the data were processed

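The authors deposited estimated counts per gene, not scaled between libraries, estimated by Partek's E/M method against an annotation model, per the file name. The submitters' processing notes list CASAVA 1.8.2, STAR, Partek and build mm10, with no role or order; the sources used here give no annotation release, gene filter or strand setting. Coordinates are mm10 and 1-based; start and end matched GENCODE M21 for all 6 members. Estimated counts were rounded and tested with edgeR 4.0.16 (R 4.3.3): filterByExpr (minimum count 10, minimum total 15), TMM, robust quasi-likelihood test, Benjamini-Hochberg adjustment over every tested gene at 0.05. SEs were derived from the F statistic. TPM used the union of exons in GENCODE M21. Alternatives were DESeq2 1.42.0, RLE factors, no filter, a mean of at least 5 CPM, limma 3.58.1 voom with quality weights and leaving out each library. The test was checked on simulated data. Named genes were the members; of each pathway list, genes past the threshold and the 2 most abundant; of each list of markers of other cell types, the 2 most abundant; and the 3 genes most like each member. Relb, Foxp3, Il6, Lcn2, Il2, Thy1, Cd79a, Epcam and the ILC2 markers that separated were added after their values were seen. Members and lists were chosen with earlier results of these data known. A protein motif search planned at the outset was not run, and some markers are not reported here.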

Additional observations from a re-analysis of the deposited data

How the results depend on the processing

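No member changed direction under any of the 11 alternatives. The Nfkbia call held in 5 and was lost in 6 of them: without the low-count filter (log2 fold change 1.10, adjusted p = 0.068) and on leaving out any library but TNFa replicate 5 (0.97 to 1.20 over all 6 omissions). None of the other 5 members was called under any alternative run; DESeq2 came closest for Nfkbie and Nfkbiz (adjusted p = 0.055 and 0.058). The count of called genes, 16 with all libraries, was 218 in DESeq2, 78 in the voom fit, 25 with a mean of at least 5 CPM, 3 without the filter and 1 to 67 on leaving out a library; it was 67 without TNFa replicate 5. Pathway genes called, 1 in the edgeR fit, numbered 4 in DESeq2 and 4 in the voom fit (Nfkb2, Relb, Nfkb1 and Gata3), 0 without the filter (5 at an unadjusted p under 0.05) and 0 to 3 on leaving out a library; the Nfkb2 call was lost in 5 of the 11. Fits without a library have fewer samples; why the other counts differ was not tested. With the longest transcript as length, an alternative chosen after seeing the data, mean shares of the family TPM were 25.6% with TNFa and 40.2% with PBS for Bcl3, 13.4% with TNFa and 15.3% with PBS for Nfkbib, and 31.6% with PBS for Nfkbia, where Bcl3 then stood above Nfkbia. No paired analysis was possible because the groups share no replicate numbers.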
